A study of Bos taurus with 4 samples.

Results

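The genes described here encode the proteins of the cytosolic and the mitochondrial ribosome. Genes were taken where the symbol of the array's annotation started with RPL, RPS, MRPL or MRPS, leaving out the RPS6K kinases, and each gene was represented by its brightest probe by raw signal mean. This gave 134 of the 12552 genes with a symbol. Of these, 43 were cytosolic large subunit genes (RPL), 25 were cytosolic small subunit genes (RPS), 40 were mitochondrial large subunit genes (MRPL) and 25 were mitochondrial small subunit genes (MRPS). The remaining gene, *RPS19BP1*, met the prefix rule but encodes a binding partner of a ribosomal protein and was kept apart. Classes otherwise went by symbol, so that MRPS holds *MRPS30*, known as a large subunit protein, and *MRPS36*, known from another complex. Among the 68 cytosolic genes were 5 with a paralog symbol (*RPL3L*, *RPL7L1*, *RPL10L*, *RPS27L* and *RPS4Y1*).

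Cytosolic ribosomes translate the transcripts of the nuclear genome, and their proteins are needed in nearly equal amounts around a scaffold of ribosomal RNA. Mitochondrial ribosomes translate the few membrane proteins that the mitochondrial genome encodes, but their own proteins are made from nuclear genes in the cytosol and imported. In cultured mammalian cells, growth factor signalling through MAPK is known to act on ribosome production and on translation, and cytosolic ribosomal protein transcripts are among the most abundant of any cell.

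In the study, bovine embryos made by in vitro fertilization were cultured in synthetic oviduct fluid, moved to fresh medium on day 5 and collected on day 9 as blastocysts, from which the inner cell mass (ICM, the cells that form the embryo proper) was cut by hand. Control ICM came from embryos cultured with the solvent DMSO, and MAPK-inhibited ICM from embryos cultured with PD0325901, which blocks the kinase MEK. RNA of each ICM sample was hybridised together with RNA of a pool of intact blastocysts on a 2-colour oligonucleotide array. There were 4 arrays, 2 for each group, called replicates a and b. Samples hold cells of several embryos, and dissected ICM can keep trophectoderm (TE) cells, so that each value is an average over cell types. In such bulk samples, fewer cells of a type and less RNA per cell cannot be told apart. The ICM sample carried Cy3 on both replicate a arrays and Cy5 on both replicate b arrays, so that replicate letter and dye cannot be told apart.

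*NANOG*, a pluripotency factor, stood apart by treatment as labelled. Its log2 ratio over the pool was 1.39 and 1.32 in control ICM and 2.72 and 2.66 in MAPK-inhibited ICM. Of 6 pluripotency and epiblast markers measured, 5 had a positive difference between MAPK-inhibited and control ICM. At an unadjusted p under 0.05, *NANOG* and *SOX2* (0.29 ± 0.09) were higher and *KLF4* (-0.38 ± 0.08) was lower. Of 8 hypoblast markers measured, 7 had a negative difference between MAPK-inhibited and control ICM, 4 of them with an unadjusted p under 0.05. Over all genes, 52.0% of differences were positive and 48.0% negative, and at that threshold 8.76% of genes were higher and 5.43% lower. Of 11 TE markers, 10 of them above background on the 4 arrays, 7 had a negative and 4 a positive difference, and the medians of this list over the pool lay between -0.20 and -0.06 on the 4 arrays. At an unadjusted p under 0.05, *TFAP2A* (0.47 ± 0.08) and *PAG8* (0.30 ± 0.08) were higher in MAPK-inhibited ICM, and *GATA2* (-0.52 ± 0.19, with an uneven spot on 1 array) and *ELF5* (-0.28 ± 0.07) were lower. Their part in the values below was not tested. The median ICM signal was 167, 110, 175 and 133 in the order control a, MAPK-inhibited a, control b, MAPK-inhibited b, and 99.5%, 83.7%, 99.8% and 97.5% of probes lay above the negative control spots. All 134 genes lay above them on the 4 arrays. On MAPK-inhibited a, 20.6% of probes had uneven spots, in which the mean and the median pixel differed by more than 0.5 on the log2 scale in a channel. The share was 3.11% on MAPK-inhibited b and under 0.1% on both control arrays. Spots of 25 of the 134 genes were uneven on MAPK-inhibited a and 6 on MAPK-inhibited b.

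*RPL15*, a large subunit protein, was one of the transcripts against which the study normalised its qRT-PCR, and the primers are shown because of this use. Both are given 5′ to 3′, with no part set in capitals.
RPL15 forward primer: cacaagttccaccacactattgg
RPL15 reverse primer: tggagagtattgcgccttctc
On the arrays, *RPL15* had log2 ratios over the pool of 0.33 in control a, 0.48 in MAPK-inhibited a, 0.15 in control b and -0.04 in MAPK-inhibited b. The groups overlapped. The difference MAPK-inhibited minus control was -0.02 ± 0.11 (SE), with an unadjusted p of 0.854 in limma's moderated test, and it was positive with replicate a and negative with replicate b.

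Over the pool, the 2 kinds of ribosomal protein gene behaved differently from array to array. The median log2 ratio of the 68 cytosolic genes was -0.26 in control a and -0.24 in MAPK-inhibited a, but 0.30 in control b and 0.15 in MAPK-inhibited b. That of the 65 mitochondrial genes was 0.20, 0.19, 0.03 and 0.00, while the median of all genes stayed within 0.01 of 0 on every array. Of the cytosolic genes, 15, 13, 53 and 43 lay above the pool in this order, and of the mitochondrial genes 55, 49, 39 and 34. The cytosolic ratios thus changed side with the replicate letter, and the mitochondrial medians were at or above 0 on all 4 arrays. Averaged over the dyes, the median of the cytosolic genes was 0.03 in control and -0.05 in MAPK-inhibited ICM, and that of the mitochondrial genes was 0.11 and 0.10.

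**Figure D1:**
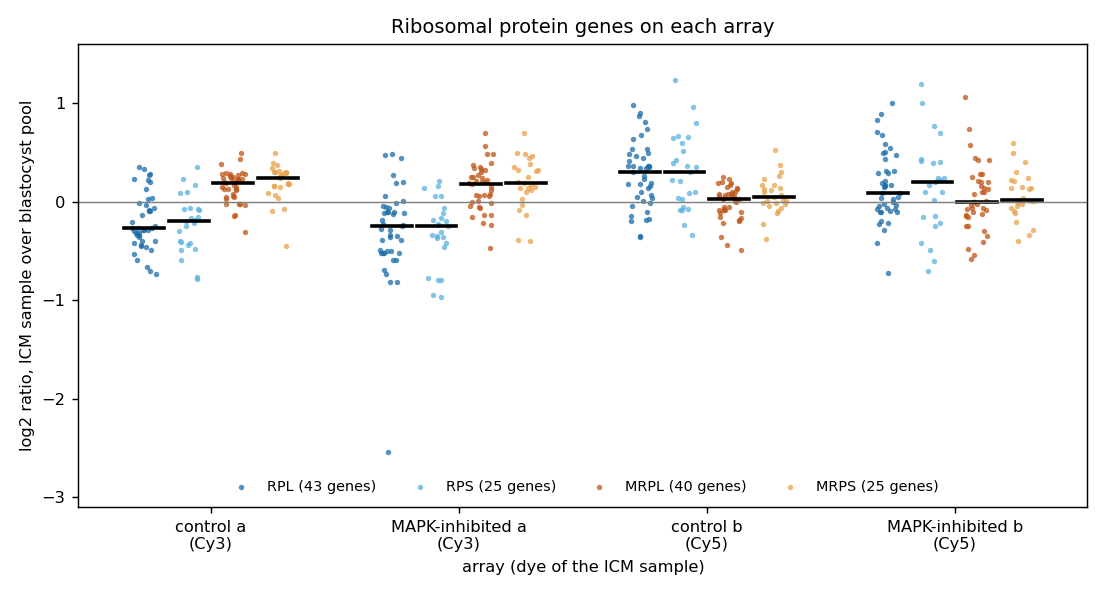
Log2 ratio of ICM sample over blastocyst pool (vertical axis) of each ribosomal protein gene on the 4 arrays (horizontal axis, with the dye of the ICM sample). Each point is a gene and each black bar a class median. Cytosolic medians lie below 0 on both arrays with the ICM sample in Cy3 and above 0 on both with Cy5, and mitochondrial class medians lie between -0.00 and 0.24.

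The difference between the medians of cytosolic and mitochondrial genes was -0.45, -0.43, 0.27 and 0.15 on the 4 arrays, with a mean of -0.12 ± 0.38 (SD, n = 4 arrays). Its sign was that of the dye orientation and not that of the treatment. Large and small subunit genes did not part in this way. RPL minus RPS medians were -0.07, 0.00, -0.00 and -0.11, with a mean of -0.04 ± 0.054, and MRPL minus MRPS medians were -0.05, -0.01, -0.02 and -0.02, with a mean of -0.02 ± 0.020 (SD, n = 4 arrays). The 2 subunits of a ribosome lay closer together on every array than the 2 ribosomes did.

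Dye orientation separated the arrays for most cytosolic genes. A gene's ratio with the ICM sample in Cy5 minus that in Cy3 had a median of 0.45 over the cytosolic genes, -0.15 over the mitochondrial genes and -0.02 over all genes. In the dye term of the limma fit, looked at after the values were seen, 40 cytosolic and 2 mitochondrial genes had an unadjusted p under 0.05 and a higher ratio with Cy5, against a background of 7.26% of all genes. In the other direction there were 7 cytosolic and 14 mitochondrial genes, against 7.43%. After Benjamini-Hochberg adjustment over all probes, 7 cytosolic genes and 1 mitochondrial gene remained, against 1.11%. Below the pool on both Cy3 arrays and above it on both Cy5 arrays were 29 cytosolic genes and 1 mitochondrial gene, against 9.31%. Both Cy5 ratios exceeded both Cy3 ratios for 46 cytosolic and 2 mitochondrial genes, against 19.4%. In the other direction, both Cy5 ratios lay below both Cy3 ratios for 34 mitochondrial (52.3%) and 7 cytosolic genes (10.3%), against 21.8% of all genes.

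*RPS16*, whose tail reaches the peptidyl site of the small subunit, had the largest orientation difference of the 134 genes. Its ratio was -0.78 and -0.77 on the Cy3 arrays (control and MAPK-inhibited) and 1.24 and 1.20 on the Cy5 arrays. The 2 treatments of a replicate letter lay close together, and the difference between them was -0.02 ± 0.07 (SE). *RPL31*, which sits near the exit of the nascent chain, went the same way with -0.73 and -0.59 against 0.90 and 0.89. So did *RPS12*, a small subunit protein, with -0.76 and -0.95 against 0.60 and 0.77. The mitochondrial gene with this pattern was *MRPS28*, at -0.45 and -0.39 against 0.53 and 0.60.

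The orientation difference went with spot brightness. A mean raw signal above 20000 was reached by 55 of the 68 cytosolic genes (80.9%), by 0 of the 65 mitochondrial genes and by 137 genes outside the ribosome. Among these bright genes the median Cy5 minus Cy3 difference was 0.59 for the cytosolic genes, with 52 of 55 positive, and 0.74 for the other genes, with 132 of 137 positive. The 13 dimmer cytosolic genes had a median of -0.22, and 10 of them were negative. Mitochondrial genes with signals from 1000 to 5000, where 42 of them lay, had a median of -0.16, against -0.08 for 2763 other genes of that range.

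**Figure D2:**
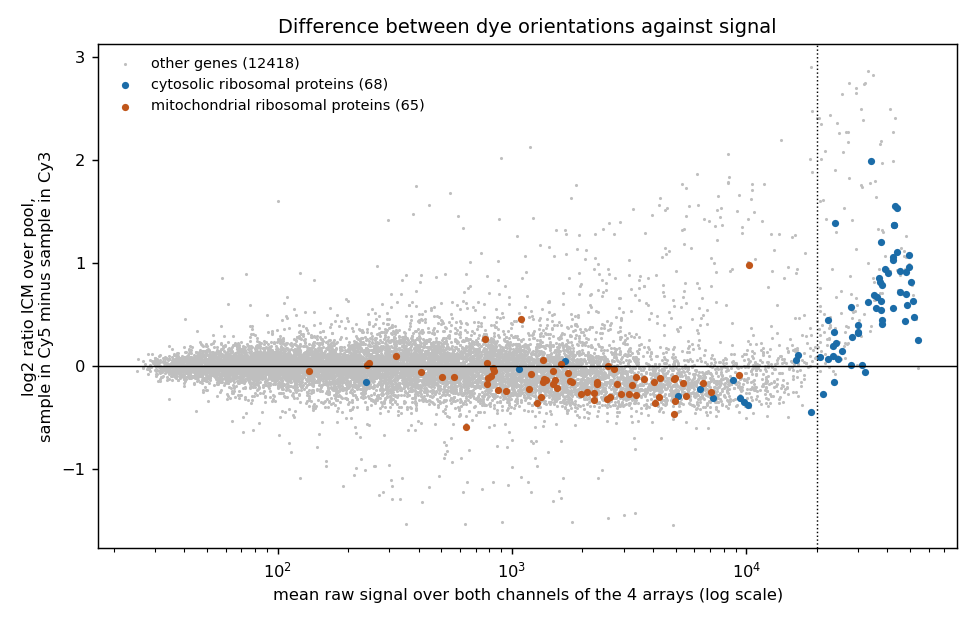
Difference between the log2 ratios with the ICM sample in Cy5 and in Cy3 (vertical axis) against mean raw signal on a log scale (horizontal axis). Each point is a gene, and the dotted line marks a signal of 20000. To its right, 52 of 55 cytosolic ribosomal protein genes and 132 of 137 other genes lie above 0.

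Different probes of the same gene showed the same dependence. For 34 cytosolic genes with a brightest probe above 20000 and another at or below it, the orientation difference was larger with the brightest than with the dimmest probe in 32. The medians were 0.61 with the brightest and -0.16 with the dimmest probes. *RPL3*, which lies next to the peptidyl transferase centre, had 6 probes. Its brightest, with a signal of 37682, gave -0.35 and -0.52 on the Cy3 arrays and 0.54 and 1.00 on the Cy5 arrays, while a probe with a signal of 4490 gave -0.02 and -0.52 against -0.17 and -0.28. The orientation difference of the first was 1.20 and that of the second 0.05.

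Some of the bright spots stood at the top of the scanner range. Of all 12552 genes, 42 had a spot whose median pixel was at the end of that range in a channel. Among them were 18 of the 68 cytosolic genes and 0 mitochondrial genes. In the pool channel these were 17 and 10 genes on the control a and MAPK-inhibited a arrays and 0 and 1 on the b arrays, and in the ICM channel 2 and 0 against 14 and 9. *RPLP1* and *RPS24* were saturated in the ICM channel on both control arrays and on neither MAPK-inhibited array, so that their control level is only a bound. In the normalised ICM channel, control over MAPK-inhibited was 1.39-fold for *RPLP1*, a value that rests on these saturated control spots. That fold was not tested. In the limma test of ratios over the pool, the adjusted p of *RPLP1* was 0.281, and its groups overlapped. For *RPS24* no fold is given. Its ratios over the pool also overlapped between the groups, at 0.23 and 0.51 in control and -0.36 and 1.00 in MAPK-inhibited ICM (adjusted p = 0.973, limma).

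Above the pool on all 4 arrays were 22 of the 65 mitochondrial genes (33.8%) and 4 of the 68 cytosolic genes (5.88%), against a background of 15.5% of all genes. Below it on all 4 were 6 of each kind, against 15.7%. The mean over the 4 arrays was above 0 for 49 mitochondrial genes (75.4%) and 29 cytosolic genes (42.6%), against 53.7% of all genes. Among genes of like signal, from 1000 to 5000, it was above 0 for 31 of 42 mitochondrial genes (73.8%) and for 51.1% of the other genes. The mitochondrial surplus over the pool was small, with a median of 0.14 over the 4 arrays, and the pool is a reference without replicates of its own.

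In the mitochondrial large subunit, *MRPL14*, which lies at the interface of the subunits, was the highest over the pool, at 0.49 in control a, 0.57 in MAPK-inhibited a, 0.19 in control b and 1.07 in MAPK-inhibited b. *MRPL13* followed with 0.43, 0.70, 0.01 and 0.58, and *MRPL52* with 0.39, 0.40, 0.13 and 0.45. The lowest were *MRPL4* (-0.13, -0.22, -0.44 and -0.13), *MRPL50* (-0.02, -0.14, -0.18 and -0.55) and *MRPL53* (-0.14, -0.15, -0.35 and -0.12). With their brightest probes these 3 lay below the pool on every array, while *MRPL14*, *MRPL13* and *MRPL52* lay above it on every array. The second probe of *MRPL53*, with a signal of 7243, was at -0.28, 0.13, -0.23 and 0.38. Its difference MAPK-inhibited minus control was 0.51 ± 0.09 (SE), with an unadjusted p of 0.00425 in limma. The 6 probes of *MRPL53* ran from -0.10 to 0.51 in this difference. Of them 1 was negative and 3 had an unadjusted p under 0.05.

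In the mitochondrial small subunit, *MRPS15*, an RNA-binding protein of its body, was at 0.49, 0.46, 0.23 and 0.24, and *MRPS18C* at 0.37, 0.39, 0.17 and 0.22. Both were above the pool throughout and differed little between treatments. *MRPS12*, a protein of the decoding region, was also above it throughout, at 0.30, 0.19, 0.26 and 0.14. *MRPS24* (-0.08, -0.13, -0.38 and -0.34) and *MRPS36* (-0.09, -0.08, -0.23 and -0.40) lay below on every array. *MRPS36* is listed in RefSeq with the synonym KGD4, under which it is known as a part of the oxoglutarate dehydrogenase complex. *MRPS30*, known as a large subunit protein despite its symbol, was at 0.29, 0.49, 0.17 and -0.10.

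Only 4 cytosolic genes were above the pool on all 4 arrays with their brightest probes. *RPL8*, near the peptidyl transferase centre, was at 0.28, 0.19, 0.17 and 0.31, and *RPS9*, at the entry of the mRNA channel, at 0.35, 0.21, 0.04 and 0.24. *RPS2*, also at that entry, was at 0.08, 0.16, 0.09 and 0.17, and *RPL7L1*, a paralog of *RPL7* known from assembling large subunits, at 0.20, 0.47, 0.03 and 0.19. The second probe of *RPS9* was at 0.24, -0.44, 0.01 and -0.20, and a dimmer *RPS2* probe at 0.18, -0.04, 0.10 and -0.04. Of the 4 *RPS2* probes, 3 had a negative difference MAPK-inhibited minus control. With their brightest probes, *RPL24*, *RPL35*, *RPL38*, *RPS27*, *RPS27L* and *RPS4Y1* lay below the pool throughout. Of these, *RPL38*, known in mice for acting on the translation of homeobox transcripts, was at -0.08, -0.12, -0.35 and -0.73. A dimmer *RPL35* probe lay above the pool on every array, at 0.31, 0.23, 0.08 and 0.28. So did another, at 0.32, 0.02, 0.08 and 0.24. Dimmer probes of *RPL24* and *RPS27* lay above it on some arrays.

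The question put to MAPK inhibition was whether ribosomal protein transcripts changed when MEK was blocked. Values are log2 differences MAPK-inhibited minus control ± SE, and unadjusted p-values are those of limma's moderated test. No member passed an adjusted p of 0.05 in limma, and neither did any other gene (0%), *NANOG* included. In ratios normalised by the authors, 121 of all genes and 0 members passed it. The lowest adjusted p was 0.281 among cytosolic and 0.322 among mitochondrial genes, and 0.263 over all probes. At an unadjusted p under 0.05, 6 members were higher in MAPK-inhibited ICM (3 cytosolic and 3 mitochondrial), against a background of 8.76% of all genes. Another 10 were lower (8 cytosolic and 2 mitochondrial), against 5.43%. The cytosolic share was 4.41% higher and 11.8% lower, and the mitochondrial share 4.62% and 3.08%. With each array centred on its median in place of loess, 1 member was higher and 43 were lower, against 2.41% and 14.3% of all genes.

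As a group, cytosolic genes leaned to negative differences. Their median difference on the log2 scale was -0.09, with -0.04 in replicate a and -0.09 in replicate b, and 45 of 68 were negative. The mitochondrial median was -0.00, with 31 positive and 34 negative genes, and the median of all genes was 0.01. By subunit the medians were -0.09 for RPL, -0.09 for RPS, 0.02 for MRPL and -0.01 for MRPS. In both orientations, 28 cytosolic genes (41.2%) were lower, against 28.4% of all genes, and 12 (17.6%) were higher, against 31.5%. Of the mitochondrial genes, 15 (23.1%) were lower in both and 20 (30.8%) were higher in both. Groups did not overlap in 2 cytosolic (2.94%) and 11 mitochondrial genes (16.9%) that were higher, against 20.0%, and in 5 cytosolic (7.35%) and 5 mitochondrial genes (7.69%) that were lower, against 17.5%. The cytosolic median was -0.00 in the authors' own normalised ratios, and leaving out 1 array at a time moved it between -0.31 and 0.13.

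**Figure D3:**
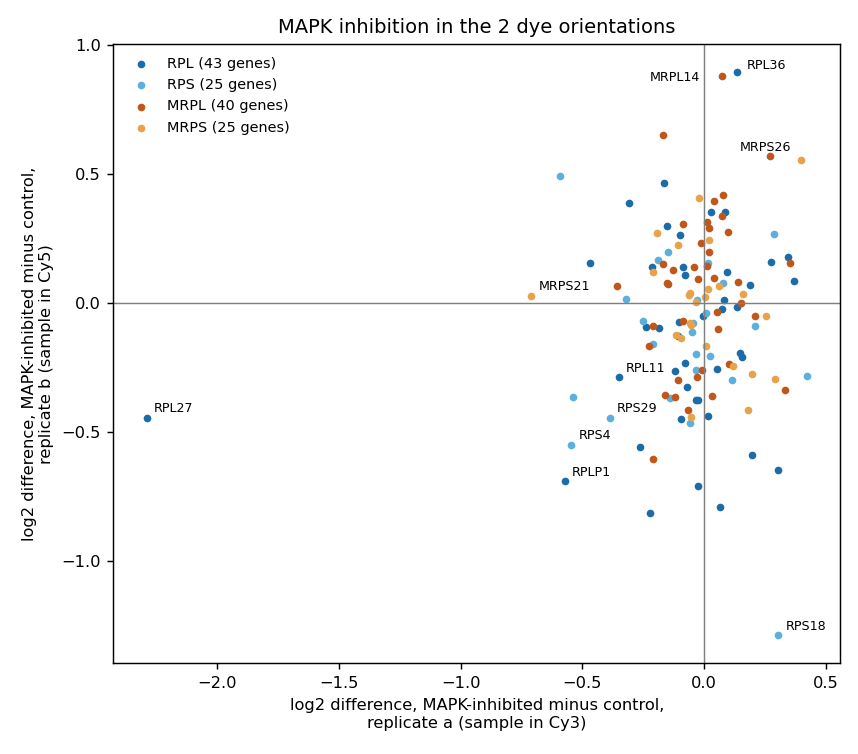
Log2 difference MAPK-inhibited minus control ICM with the ICM samples in Cy3 (replicate a, horizontal axis) and in Cy5 (replicate b, vertical axis). Each point is a gene, coloured by class, and some outlying genes are named. Genes in the lower left quadrant (28 cytosolic and 15 mitochondrial) are lower in both orientations, and those in the upper right (12 and 20) are higher in both.

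A larger share of cytosolic values was negative over all probes than over the brightest ones. Of the 206 probes of cytosolic genes, 151 (73.3%) had a negative difference, with a median of -0.13, against 66.2% over the brightest probes and 50.1% of all probes with a symbol. Of 138 mitochondrial probes it was 75 (54.3%). Among the 40 cytosolic genes with at least 3 probes, all probes were negative in 17 (42.5%) and all were positive in 3 (7.5%). Over all genes with at least 3 probes the shares were 14.8% and 12.9%. In the 34 genes with a bright and a dim probe, the dimmest probe was negative in 30 and the brightest in 22, with medians of -0.19 and -0.12. Probes of a gene measure the same RNA samples and are not replicates.

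*RPL6*, a large subunit protein, had the most probes among the genes with a single sign. Its brightest probe stood at -0.34, -0.27, 0.68 and -0.11, a difference of -0.36 ± 0.23 (SE) with an unadjusted p of 0.190. All 7 of its probes were negative, from -0.59 to -0.06, and 5 had an unadjusted p under 0.05. A dimmer probe with a signal of 16742 stood at 0.11 and 0.24 in control and at -0.35 and -0.50 in MAPK-inhibited ICM, so that its groups did not overlap. *RPS3*, which lines the entry of the mRNA channel, had 5 negative probes of 5, from -0.52 to -0.09.

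**Figure D4:**
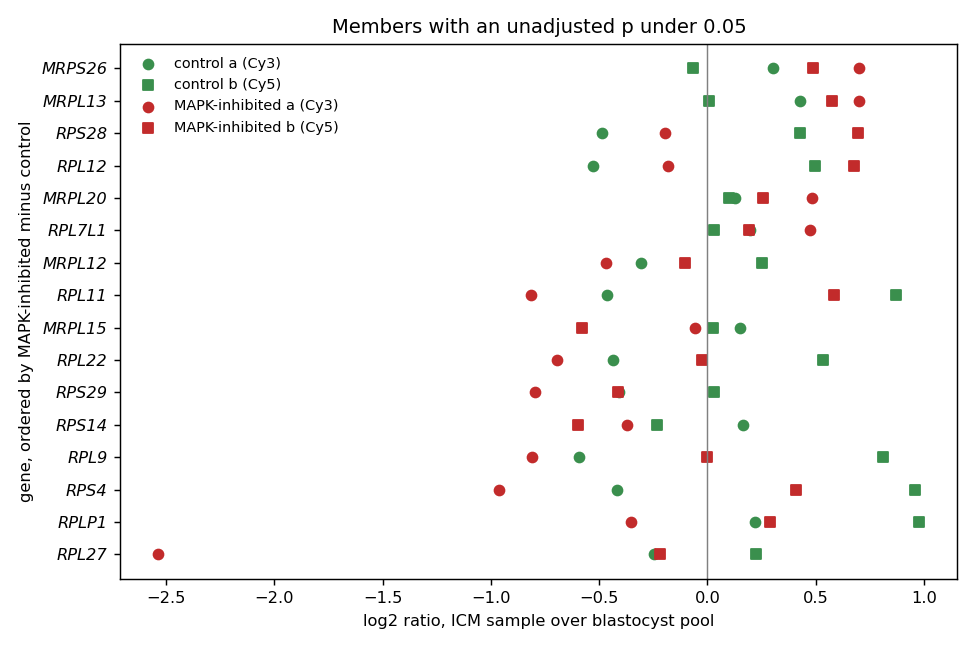
Log2 ratio of ICM sample over blastocyst pool (horizontal axis) of the 16 genes with an unadjusted p under 0.05, ordered by the difference between treatments (vertical axis). Circles are replicate a (Cy3), squares replicate b (Cy5), green control and red MAPK-inhibited ICM. Red points lie to the left of the green point of the same shape in the 10 lower genes and to the right in the 6 higher ones.

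In the stalk of the large subunit, which recruits the translation factors, the brightest probes of the 4 members differed in sign. *RPLP1*, an acidic stalk protein, was at 0.22 in control a, -0.35 in MAPK-inhibited a, 0.98 in control b and 0.29 in MAPK-inhibited b. Its fitted difference was -0.63 ± 0.08 (SE), with an unadjusted p of 0.00131 and an adjusted p of 0.281 in limma. This probe was saturated as described, and the second *RPLP1* probe gave a difference of -0.02. *RPL12*, at the base of the stalk, was at -0.53, -0.18, 0.50 and 0.68, a difference of 0.26 ± 0.08 with an unadjusted p of 0.0346, but its second probe gave -0.10 and 3 of its 6 probes were negative. *RPLP0*, which anchors the stalk, differed by -0.16 ± 0.17 and *RPLP2*, the partner of *RPLP1*, by -0.03 ± 0.07, and neither had a p under 0.05.

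*RPL5* and *RPL11*, which carry the smallest ribosomal RNA into the large subunit and which in humans bind MDM2 when assembly fails, were both negative. *RPL11* was at -0.46 and -0.82 in replicate a and at 0.87 and 0.59 in replicate b, a difference of -0.32 ± 0.07 with an unadjusted p of 0.0123, and its spots were partly saturated. *RPL5* was at -0.40 and -0.49 against 0.34 and -0.11, a difference of -0.27 ± 0.11 with a p of 0.0775, and its 6 probes ran from -0.41 to 0.02. In each replicate the MAPK-inhibited value was the lower, but the groups overlapped for both genes because of the distance between the replicates.

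Around the exit of the nascent chain, *RPL22* was at -0.43 and -0.70 in replicate a and 0.53 and -0.03 in replicate b, a difference of -0.41 ± 0.10 with an unadjusted p of 0.0173. All 3 of its probes were negative. *RPL17* (-0.20 ± 0.11), *RPL39* (-0.20 ± 0.10) and *RPL26* (-0.20 ± 0.21) had negative differences with no p under 0.05 on their brightest probes, and the second probe of *RPL39* gave -0.56 with a p of 0.0106. None of these 4 lay apart by treatment on the 4 arrays with its brightest probe.

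Of the other large subunit genes, *RPL9* was at -0.59 and -0.81 in replicate a and 0.81 and -0.00 in replicate b, a difference of -0.52 ± 0.17 with an unadjusted p of 0.0367. Its 5 probes were all negative, from -1.18 to -0.08, and 1 had a p under 0.05. The probe used when spots near the top of the scanner range were left out gave the value nearest 0. *RPL36* had the highest difference of the cytosolic genes, with 0.13 and 0.27 in replicate a and -0.19 and 0.71 in replicate b. Its fitted value was 0.52 ± 0.20 with a p of 0.0663, the next probe gave 0.46, and all 3 probes were positive.

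*RPL27* was the one member past a 2-fold difference, and it rested on 1 spot. It was at -0.25 in control a, -2.54 in MAPK-inhibited a, 0.23 in control b and -0.22 in MAPK-inhibited b. The raw ICM signal of these spots was 30066, 316, 38523 and 28032, and on MAPK-inhibited a the median pixel was 36 in the ICM channel and 196 in the pool channel, where the mean was 3373. The fitted difference was -1.37 ± 0.47 with an unadjusted p of 0.0459. With the median pixel of each spot it was -0.42, and the other 2 probes gave -0.39 and -0.23.

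In the small subunit, *RPS4* had 4 probes with like differences. The symbol is a RefSeq synonym of both *RPS4X* and *RPS4Y1*, so that the copy is not settled. Its brightest probe was at -0.42 and -0.96 in replicate a and at 0.96 and 0.41 in replicate b, a difference of -0.55 ± 0.07 with an unadjusted p of 0.00164 and an adjusted p of 0.283 in limma. All 4 probes were negative, from -0.64 to -0.51, and each had an unadjusted p under 0.05. The brightest was saturated in the ICM channel on both replicate b arrays and had an uneven spot. On the probe with a signal of 20605, control ICM was at 0.02 and -0.17 and MAPK-inhibited ICM at -0.57 and -0.85, with no overlap. *RPS4Y1* had 2 probes of its own. The brighter was at -0.09 and -0.08 in control and -0.34 and -0.15 in MAPK-inhibited ICM, a difference of -0.16 ± 0.08 with a p of 0.134. The dimmer was at 0.12 and -0.26 against -0.46 and -0.87, a difference of -0.59 with an unadjusted p of 0.00126 and no overlap.

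*RPS14*, whose loss is known from a human anaemia, was at 0.16 in control a, -0.37 in MAPK-inhibited a, -0.24 in control b and -0.60 in MAPK-inhibited b. The difference was -0.45 ± 0.08 with an unadjusted p of 0.00603, and the groups did not overlap. *RPS29*, a small zinc-binding protein, was at -0.41, -0.80, 0.03 and -0.41, a difference of -0.41 ± 0.07 with an unadjusted p of 0.00485. Its groups lay apart by less than 0.01. *RPS28* was the small subunit gene with the highest difference, at -0.49, -0.20, 0.43 and 0.69, a difference of 0.28 ± 0.07 with an unadjusted p of 0.0180, and its other 3 probes gave 0.21, 0.14 and -0.21. *RPSA*, also known as the laminin receptor, differed by -0.26 ± 0.12 and *RPS19*, mutated in Diamond-Blackfan anaemia in humans, by -0.09 ± 0.09, and neither had a p under 0.05 on its brightest probe. The second probe of *RPSA* gave -0.32, with a p of 0.0153, and the 5 probes of *RPS19* ran from -0.51 to 0.08.

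*RPS18*, a small subunit protein, went opposite ways in the replicates. It was at -0.25 in control a, 0.06 in MAPK-inhibited a, 0.80 in control b and -0.49 in MAPK-inhibited b, so that the difference was positive in replicate a and negative in replicate b. Spots of this gene were saturated in the pool channel on 3 arrays and in the ICM channel on 2. Its fitted difference of -0.49 ± 0.41 had a p of 0.298, and its other 2 probes gave -0.38 and -0.09.

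Paralogs were measured beside their partners. *RPS27L*, known in human cells as a target of p53, was at -0.16, -0.30, -0.34 and -0.71, a difference of -0.25 ± 0.09 with a p of 0.0511, and its other 2 probes gave -0.03 and 0.03, while *RPS27* was at -0.19, -0.24, -0.07 and -0.15 with -0.06 ± 0.07. *RPL7L1* differed by 0.22 ± 0.08 with an unadjusted p of 0.0487 on its brightest probe, but its other 3 probes were negative. They gave -0.30, -0.24 and -0.21, with unadjusted p-values of 0.0236, 0.0341 and 0.0611 in limma. The direction of *RPL7L1* thus depended on the probe. *RPL7* differed by -0.17 ± 0.25 with a p of 0.533, and its second probe gave -0.07. The differences between the partners were not tested.

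Of the mitochondrial large subunit genes, *MRPL13*, *MRPL15* and *MRPL20* encode proteins with bacterial counterparts. *MRPL13* was at 0.43 and 0.01 in control and 0.70 and 0.58 in MAPK-inhibited ICM, a difference of 0.42 ± 0.10 with an unadjusted p of 0.0156. *MRPL20* was at 0.13 and 0.10 against 0.48 and 0.25, a difference of 0.25 ± 0.09 with a p of 0.0442. The 2 groups did not overlap for either, but the second probe of *MRPL20* gave -0.03. *MRPL15* went the other way, at 0.15 and 0.03 against -0.06 and -0.58, a difference of -0.41 ± 0.12 with an unadjusted p of 0.0307, and its second probe gave -0.23. *MRPL12*, the mitochondrial stalk protein, was at -0.31 and -0.47 in replicate a and 0.25 and -0.11 in replicate b, a difference of -0.26 ± 0.09 with a p of 0.0411. Of its 6 probes 4 were positive, the second brightest at 0.24, so that its direction depended on the probe. *MRPL14*, the highest over the pool, differed by 0.48 ± 0.22 with a p of 0.0924, and its second probe gave 0.07.

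Of the mitochondrial small subunit genes, *MRPS26* alone had an unadjusted p under 0.05 with its brightest probe. It was at 0.30 and -0.07 in control and at 0.70 and 0.49 in MAPK-inhibited ICM, a difference of 0.48 ± 0.08 with an unadjusted p of 0.00442 and an adjusted p of 0.322 in limma. Its spot on MAPK-inhibited a was uneven, with a mean of 1971 and a median of 120 in the ICM channel. With the median pixel of each spot its difference was 0.07, and the second probe gave 0.18. The other small subunit genes differed by between -0.34 (*MRPS21*) and 0.19 (*MRPS7*) with their brightest probes. *MRPS21* was at 0.31, -0.40, -0.02 and 0.00, with an uneven spot, a difference of -0.34 ± 0.20 and a p of 0.166. Its other probes gave -0.22, with a p of 0.0357, and -0.14. A dimmer probe of each of *MRPS16*, *MRPS31* and *MRPS35* also had an unadjusted p under 0.05. *MRPS7* differed by 0.19 ± 0.13 with a p of 0.210, and was higher in replicate b only.

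Other genes of the translation machinery had differences of both signs. At an unadjusted p under 0.05, 8.76% of all genes were higher and 5.43% lower. Of 60 nucleolar ribosome biogenesis factors, 24 had a positive and 36 a negative difference, with a median of -0.04. At that threshold 3 (5.00%) were higher, among them *TSR2* (0.43 ± 0.07), a chaperone of *RPS26*, and 2 (3.33%) were lower, *UTP14A* (-0.44 ± 0.08) and *NOP58* (-0.37 ± 0.11), both of the machinery that processes ribosomal RNA. Of 45 cytosolic translation factors, 3 (6.67%) were higher, among them *EIF3I* (0.51 ± 0.10), and 2 (4.44%) were lower, among them *EIF2S3* (-0.73 ± 0.14), a subunit of the factor that brings the initiator tRNA. Of 24 mitochondrial translation factors, 5 (20.8%) were higher, among them *TUFM* (0.36 ± 0.09), the elongation factor, *MTIF2* (0.32 ± 0.09), the initiation factor, and *OXA1L* (0.29 ± 0.09), which inserts the products into the membrane. In that list *LRPPRC*, which keeps mitochondrial mRNAs stable, was lower (-0.43 ± 0.08), the 1 of 24 (4.17%) in that direction. No gene of these lists passed an adjusted p of 0.05 in limma.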

How the data were processed

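Bovine ICM samples were hybridised against a blastocyst pool on 2-colour arrays. Per the file headers, the deposited scanner files hold mean and median spot intensity and local background for each channel, neither subtracted nor normalised. The authors also deposited log2 ratios, made with loess and a correction of gene-specific dye bias, whose direction (ICM over pool) was taken from the scanner values. Their column medians were 0.00, 0.02, 0.01 and 0.01, and how they were centred is unknown.

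Mean spot intensities were corrected with the background median by normexp (offset 50), turned to log2 ratios of ICM over pool and normalised by loess within arrays, with weight 0 for 1567 control spots (R 4.3.3 and limma 3.58.1). For 43653 probes, group and dye were terms of a linear model (lmFit, eBayes, 1 residual degree of freedom, prior 2.90), two-sided, with Benjamini-Hochberg adjustment over all probes and a threshold of 0.05. With 4 arrays, their number limits the precision. Nothing in the labels says that replicates were separate cultures, and p-values measure only the spread between these samples, which may be technical. Since letter and dye orientation coincide, the replicate block is the dye term. Across probes, same-letter arrays deviated together from their group means (r = 0.454).

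Symbols came from the platform annotation (27952 probes with 1 symbol, 15701 with none). Of the 134 symbols, 133 were found in RefSeq. Coordinates were not used. Above background meant above the 95th percentile of 757 negative control spots. The members and lists were chosen with earlier results of these data known. Named were, in each class, the 3 highest and the 3 lowest by difference, among genes with 1 sign in both replicates, and by ratio over the pool, the smallest p-values, and genes of fixed roles or paralog pairs. *RPL6*, *RPS3*, *RPL3*, *RPL31*, *RPS12*, *RPS18*, *MRPS28*, *MRPS7* and the other genes below or above the pool throughout were named after their values were seen. The fit was tested on simulated data. Alternatives were other background corrections and normalisations, no dye term, the mean over probes, filters on dim or bright probes and leaving out each array. Added after seeing the data were the median pixel and uniform spots only.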

Additional observations from a re-analysis of the deposited data

How the results depend on the processing

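No member passed an adjusted p of 0.05 under any alternative that kept all 4 arrays. Of all 12552 genes, 121 passed it in the authors' ratios and 15 without background correction, against 0 in the main fit. The counts with an unadjusted p under 0.05 were 6 higher and 10 lower, against 1100 and 681 of all 12552 genes. They became 2 and 18 with the background mean, against 765 and 828 of all genes. Median centring gave 1 and 43, against 302 and 1789, and there the median of all genes moved from 0.01 to -0.05. With no replicate block they were 1 and 0, against 806 and 445. The mean over probes gave 4 and 23, against 698 and 586. Median spot signals gave 2 and 14, against 1083 and 635. Leaving out 1 array at a time, without a dye term, gave 1 to 5 higher and 1 to 13 lower (1 and 1 without control replicate b, 4 and 6 without MAPK-inhibited replicate b). The cytosolic median difference (-0.09) was -0.25 with median centring, -0.15 with the mean over probes, -0.0031 in the authors' ratios and -0.31 to 0.13 leaving out 1 array, where it was positive without MAPK-inhibited replicate a (0.08) or control replicate b (0.13). The mitochondrial one (-0.00) was -0.16 with median centring and -0.077 to 0.096 leaving out 1 array. The difference between MRPL and MRPS medians of each gene's mean ratio over the pool (-0.04) became 0.0077 with the mean over probes, -0.092 with uniform spots and -0.047 to -0.018 leaving out 1 array. With the mean over probes, *MRPL12* (0.034) and *RPL7L1* (-0.13) changed sign. Of 16 members with an unadjusted p under 0.05, 8 kept their sign in every alternative that gave a value, and each passed the threshold in 3 to 11 alternatives.

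Leaving out 1 array, some values changed sign, with ranges of -0.25 to 0.78 for *RPL12*, -0.18 to 0.73 for *RPS28*, -1.02 to 0.38 for *RPL11*, -1.23 to 0.14 for *RPS4*, -0.54 to 0.021 for *MRPL12*, -0.89 to 0.074 for *RPL22*, -1.22 to 0.18 for *RPL9*, -0.73 to 0.63 for *RPS24* and -0.68 to 0.34 for *RPL7*. The dye is then unbalanced between the groups. The slide and scan alternative was not run, since the headers give neither. Spots near the top of the scanner range limit the cytosolic values.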

Other observations

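Genes tied to the 2 ribosomes whose symbols lack the prefixes were also measured. The mitochondrial ones include *ERAL1* (-0.05 ± 0.07), *GFM2* (0.04 ± 0.11), *MTG1* (0.00 ± 0.08) and *NGRN* (0.03 ± 0.08), which are not ribosomal proteins. Of 11 mitochondrial ones, 7 (63.6%) had a positive difference between MAPK-inhibited and control ICM, against 52.0% of all genes, and 2 (18.2%) were higher with an unadjusted p under 0.05, against 8.76%. *MRP63* was at -0.05 and -0.21 in control and 0.27 and 0.02 in MAPK-inhibited ICM (0.27 ± 0.07), and *ICT1*, a release factor built into the mitochondrial ribosome, was at 0.04 and -0.12 against 0.24 and 0.13 (0.23 ± 0.07). The groups did not overlap for either gene. *CHCHD1*, a small subunit protein, was above the pool on every array, at 0.53, 0.49, 0.30 and 0.39 in the order control a, MAPK-inhibited a, control b, MAPK-inhibited b. Of the cytosolic ones, *FAU* differed by 0.04 ± 0.09 and *GNB2L1*, the scaffold protein on the head of the small subunit, by -0.15 ± 0.07.

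In the log2 ratios that the authors deposited after their correction of dye bias, the cytosolic medians over the pool were -0.06, 0.09, 0.10 and 0.03 in the same order, and the mitochondrial medians 0.15, 0.14, 0.10 and 0.14. There, 32 mitochondrial genes (49.2%) and 12 cytosolic genes (17.6%) were above the pool on all 4 arrays, against 21.5% of all genes.

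*RPS19BP1*, which met the prefix rule without being a ribosomal protein, was at 0.29, 0.18, 0.11 and 0.20, above the pool on every array, and differed by -0.01 ± 0.09 between treatments.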
